A study of Mus musculus with 310 samples.

Results

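Ccl27a, its near-copy Gm13306, Cxcl14 and Il33 are signalling genes of the epidermis. They were chosen by name, with earlier results of these data known, and are 4 of the 14068 genes in the table. The study sorted tdTomato-positive keratinocytes from tail skin of female mice on a mixed CBA and C57BL/6 background, with the alleles Lrig1-EGFP-ires-CreERT2 and Rosa26-fl/STOP/fl-tdTomato, and sequenced single cells along the full transcript with a modified Smart-seq2 protocol. All groups carried both alleles and received hydroxytamoxifen once on the tail, so the label marks cells that expressed Lrig1, a stem cell gene of the upper hair follicle, together with their progeny, and any other Lrig1-expressing cell type of the skin could carry it too. The 310 cells fall into the group 38w, with 70 cells of RepI (plates C114 and C118) and 75 of RepL (plate C119), and the group 38wUW, with 82 cells of RepM (plate C128) and 83 of RepN (plate C129). Both labels give a time of 38 weeks, and the study set repaired skin against age control skin, but the labels neither spell out UW nor say which group was wounded, so differences are given as 38w against 38wUW and their direction with respect to the wound is open. The labels also give each plate a batch tag with no further account of it. C118, C119 and C129 share 1 tag and C114 and C128 the other, so RepI pools plates of both. The study describes its aged single-cell data as joined from independent experiments, each with several biological replicates. The labels do not tie these to the replicate names or batch tags. Nothing in the labels says how many mice stand behind a replicate, so the spread between replicates may be partly technical.

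The sums per replicate ran from 5472070 to 12946742 reads and single cells held 11711 to 721564 reads. A level is given as CPM, the reads of a gene per 1000000 reads of all genes, summed over the cells of a replicate or plate, and a gene is called found in a cell with an estimated count above 0. Plate C114 stood apart, where ribosomal protein genes took 31.8% of the reads of the median cell against 3.60% to 6.80% on the others, and mitochondrial genes 2.77% against 9.69% to 33.8%. Of the cells, 15 carry a suffix in their name that the labels do not explain (13 IDTILL, 2 MBULK), and 11 wells of C114 are named by 2 cells each. No 2 cells had identical counts, and all were kept. All 10 keratinocyte markers on the list used here were found in the table, and every cell held reads of that list. The latter is set by Dsp and Perp, each found in all 310 cells. Krt14 was found in 90%, Krt5 in 74.5% and Epcam in 69.4% of cells.

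CCL27 is a chemokine of keratinocytes that draws memory T cells into the skin through the receptor CCR10. In the mouse the gene was copied together with part of its neighbourhood, and Gm13306 is the gene model of one such copy. CXCL14 is a chemokine that healthy epithelia make without inflammation. IL-33 is a cytokine of the IL-1 family that is stored in the nucleus of barrier cells, is let out when they are damaged, and acts through the receptor ST2, encoded by Il1rl1, with Il1rap as the second chain.

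Ccl27a (ENSMUSG00000073888) lies on the minus strand at chr4:41769467-41774247 of GRCm38, and its end overlaps that of Il11ra1, a receptor gene on the other strand, by 8 bases. Gm13306 (ENSMUSG00000073877) lies 379188 bases further on, on the plus strand at chr4:42153436-42158839, and its end is 2 bases away from that of Gm13305, a copy of Il11ra1. Cxcl14 (ENSMUSG00000021508) is at chr13:56288643-56296551 on the minus strand and Il33 (ENSMUSG00000024810) at chr19:29925114-29960718 on the plus strand. The coding sequences of the secreted forms, transcripts Ccl27a-201 and Gm13306-201, are both 360 bases long in 3 exons and differ at 3 positions, C177T, G297A and A343C, with positions counted from 1 at the start codon and the Ccl27a base written first. Bases 151 to 360 are shown because they hold all 3 differences, which are in capitals; everything else is the same in both genes. The coding exons span chr4:41769501-41770190 on the minus strand for Ccl27a and chr4:42158126-42158815 on the plus strand for Gm13306.
Ccl27a: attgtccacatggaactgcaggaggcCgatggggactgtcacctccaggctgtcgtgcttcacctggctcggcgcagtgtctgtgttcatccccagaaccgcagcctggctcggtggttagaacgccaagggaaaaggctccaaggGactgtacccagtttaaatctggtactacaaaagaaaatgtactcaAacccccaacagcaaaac
Gm13306: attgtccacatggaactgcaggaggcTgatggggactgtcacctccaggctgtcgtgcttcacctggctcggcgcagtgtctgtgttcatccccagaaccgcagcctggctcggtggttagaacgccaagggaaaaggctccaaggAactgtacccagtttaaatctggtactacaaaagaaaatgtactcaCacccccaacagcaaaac

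The stretch before the start of the secreted form is as alike. Over the 238 bases shown, taken from the RefSeq promoters of GRCm38.p6 at chr4:41770225-41770462 (minus strand, Ccl27a) and chr4:42157854-42158091 (plus strand, Gm13306), the genes differ at 2 positions, T11C and T140A counted from the first base shown, again in capitals.
Ccl27a: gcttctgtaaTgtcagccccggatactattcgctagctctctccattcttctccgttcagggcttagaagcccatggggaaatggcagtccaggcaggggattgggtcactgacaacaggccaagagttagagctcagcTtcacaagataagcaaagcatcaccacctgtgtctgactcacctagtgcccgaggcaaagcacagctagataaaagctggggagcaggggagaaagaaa
Gm13306: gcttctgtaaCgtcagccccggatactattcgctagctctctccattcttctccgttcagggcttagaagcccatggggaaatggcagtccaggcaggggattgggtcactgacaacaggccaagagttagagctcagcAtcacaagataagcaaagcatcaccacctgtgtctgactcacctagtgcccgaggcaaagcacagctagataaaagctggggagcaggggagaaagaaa

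These sequences bear on every value of the pair, because a read of 75 bases can separate the copies only where it covers a difference. Of the 999 distinct 75-base stretches in the annotated Gm13306 transcripts, 476 (47.6%) are also in Ccl27a, and 681 (68.2%) are in at least 1 other gene. Of the 2841 stretches of Ccl27a, 946 (33.3%) are in another gene, with 573 (20.2%) in Gm20878 and 476 (16.8%) in Gm13306. Gm20878 had 24.6 reads in 12 cells and is not part of the sum of both copies used below. A further copy, Ccl27b at chr4:42655251-42656005, has a coding sequence identical to that of Gm13306 and was not analysed here, since the table used has no row for it. Cxcl14 and Il33 shared none of their 1827 and 2927 stretches with any other annotated gene. The estimated counts carry the same mark. Counts were not whole in 39 of the 57 cells with Ccl27a and in 31 of the 53 with Gm13306, whereas every count of Cxcl14 and Il33 was whole. Within a tolerance of 0.01 reads, 38 cells had a fractional count of either copy, and in 23 of these the sum of both was whole. Values are therefore given for each copy and for the sum of both, and the division of reads between them is uncertain.

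Ccl27a had 25.2 CPM in RepI and 2.76 in RepL (38w), and 43.4 in RepM and 17.4 in RepN (38wUW). RepM was the highest and RepL the lowest, and the groups overlapped. It was found in 18 of 70, 3 of 75, 22 of 82 and 14 of 83 cells of these replicates, 57 cells in all (18.4%; 95% Wilson interval 14.5% to 23.1%). The 2 plates of RepI differed as much as replicates did: all 18 cells were on C114, whereas none of the 17 cells of C118 had a read, which allows a share of up to 17.6% at the floor of 3 cells (95% Wilson upper limit 18.4%).

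Gm13306 had 6.29 CPM in RepI and 0 in RepL (38w), and 158.5 in RepM and 43.2 in RepN (38wUW), so both 38wUW replicates lay above both 38w replicates. It was found in 12 of 70, 0 of 75, 25 of 82 and 16 of 83 cells, and the 0 of 75 in RepL allows a share of up to 4% at the floor of 3 cells (95% Wilson upper limit 4.87%). Against a floor of 3 reads in RepL, which is 0.517 CPM there, RepM was at least 306.6-fold and RepN at least 83.6-fold higher. Without the top cell of each it was at least 151.9-fold and 63.8-fold. RepI, of the same group as RepL, was also at least 12.2-fold above this floor, and 8.40-fold without its top cell. These folds therefore include the spread within 38w. The cell with the most Gm13306, on C128, held 444 of its 1488 reads (29.8%). Without the top cell of each replicate the means were 2.17 ± 3.07 CPM in 38w and 55.8 ± 32.2 in 38wUW (SD, n = 2 each), and the groups still did not overlap.

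The sum of both copies was 31.5 CPM in RepI and 2.76 in RepL (38w), and 201.9 in RepM and 60.6 in RepN (38wUW). It was found in 77 cells, and Ccl27a and Gm13306 shared 33 of them. The copies took unequal parts of the sum in the groups. Ccl27a held 80.0% of the pair's reads in RepI and 100% of the 16 reads in RepL, but 21.5% in RepM and 28.7% in RepN. The same was seen in single cells with at least 10 reads of the pair: the median share of Ccl27a was 100% in the 5 such cells of RepI (lowest 52.7%), 16% in the 13 of RepM and 14.5% in the 13 of RepN. Shares in RepN reached 90.7% and in RepM 62.5%, so cells of the groups overlapped. In 38w the division rests mainly on plate C114, which held 305.5 of the 306.5 reads of the pair in RepI and all 5 of those cells. C118 had 1 read of the pair, of Gm13306, and in RepL 13 of the 16 reads came from 1 cell. The division rests on the stretches that the copies do not share. Sequence differences between the mixed strain of the mice and the reference were not examined.

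**Figure D1:**
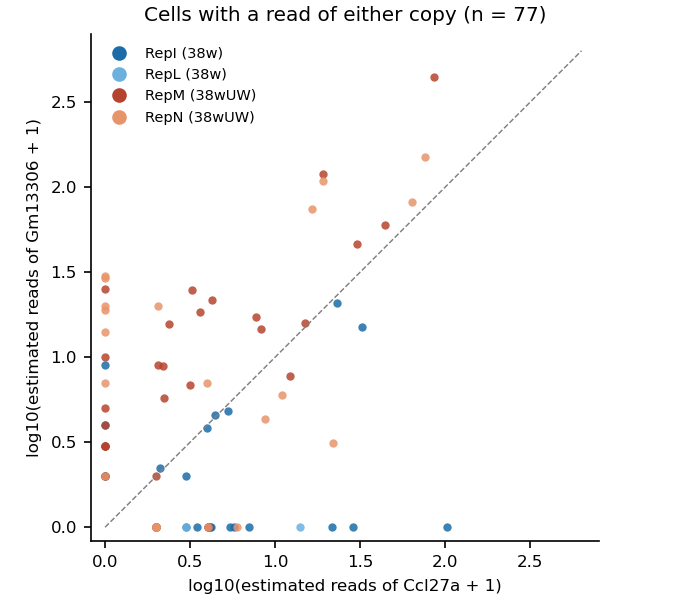
Estimated reads of Ccl27a (x axis, log10 of reads + 1) against those of Gm13306 (y axis, same scale) in the 77 cells with a read of either, coloured by replicate; the dashed line marks equal reads. Most cells of RepM and RepN that hold both copies lie above the line, whereas most cells of RepI lie near it or on the x axis.

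Cxcl14 was the most often found, in 103 of 310 cells (33.2%; 28.2% to 38.6%), at 121.8 CPM in RepI and 12.6 in RepL (38w), and 20.3 in RepM and 54.8 in RepN (38wUW). RepI was the highest and RepL, of the same group, the lowest. A single cell on C114 held 859 of the 2078 Cxcl14 reads (41.3%), and without the top cell of each replicate the means were 22.6 ± 16.9 CPM in 38w and 24.9 ± 9.67 in 38wUW. That cell also had 824.6 CPM of the 5 fibroblast markers in the table, against 40.1 over the other 102 cells with Cxcl14 and 9.87 over the 207 cells without. Its keratinocyte markers came to 2648 CPM, against 26631 over the other 102. Among the marker lists of skin compartments used below, it scored highest on that of sebocytes. Over whole replicates the fibroblast markers summed to 62.7 and 21.3 CPM in 38w and to 17.5 and 8.42 CPM in 38wUW. Dcn made up 61.7 CPM of this in RepI, where Col1a1, Col1a2 and Pdgfra were at 0, and 10.3 CPM in RepL, where Lum had 9.24. Their part in the level of Cxcl14 was not tested.

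Il33 was found in 80 cells (25.8%; 21.3% to 31.0%) at 21.3 CPM in RepI and 59.3 in RepL (38w), and 28.9 in RepM and 161.0 in RepN (38wUW). RepN was the highest and RepI the lowest, and the groups overlapped. The shares of cells were closer together than the levels: 22.9% in RepI and 30.7% in RepL (38w), and 19.5% in RepM and 30.1% in RepN (38wUW). RepN stood out by the reads per cell that had any, with a median of 43, against 5 to 8.5 in the other replicates, and the 5 cells with the most Il33 were all on its plate, C129. Within RepI the plates again differed, with 9.0 CPM on C114 and 78.5 on C118.

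**Figure D2:**
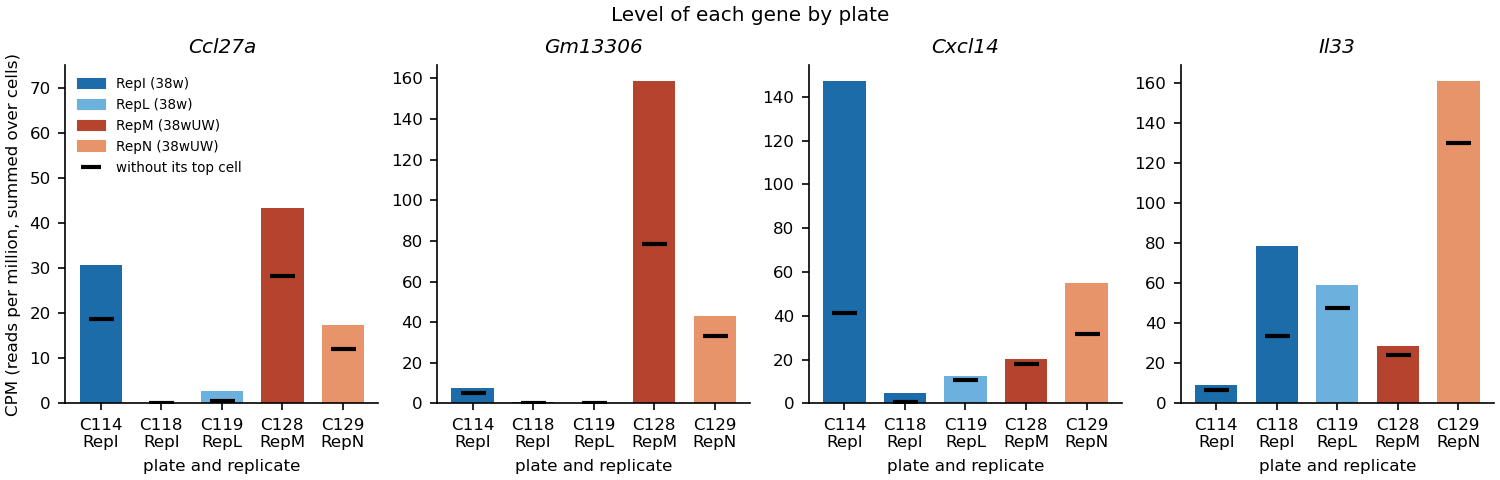
CPM of each gene (y axis, own scale in each panel) on the 5 plates (x axis, with their replicate), as bars coloured by replicate; the black mark is the level without the plate's cell with the most reads of that gene. Gm13306 reached 158.5 CPM on C128 and 0 on C119, and the Cxcl14 bar of C114 fell by more than any other when 1 cell was left out.

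**Figure D3:**
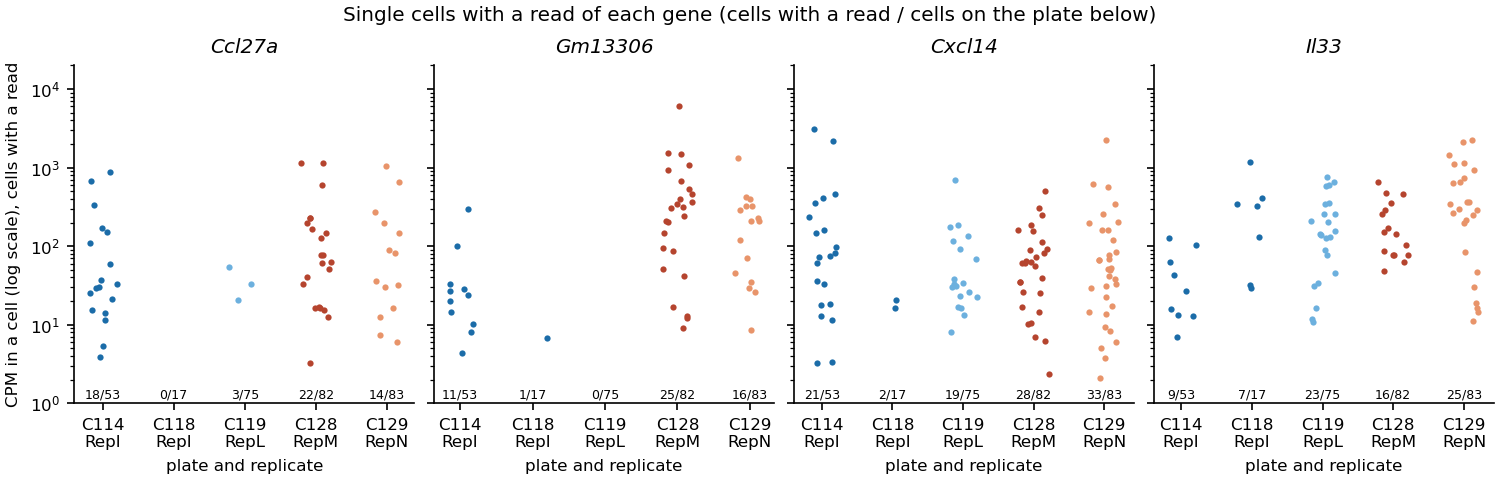
CPM of each gene (y axis, log scale) in the single cells with a read of it, by plate (x axis), with the number of such cells over all cells of the plate written below. No cell of C119 had Gm13306, and single cells of C128 and C129 reached above 1000 CPM for it.

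Per length, the order of the genes was not the same in any 2 replicates. With CPM divided by the kilobases of the longest coding transcript (841 bases for Ccl27a, 542 for Gm13306, 1827 for Cxcl14 and 2544 for Il33), Cxcl14 led in RepI at 66.7 and Il33 was last at 8.37. Il33 led in RepL at 23.3, ahead of Cxcl14 at 6.89. Gm13306 led in RepM at 292.5, where Il33 and Cxcl14 were last and close together at 11.3 and 11.1, and in RepN at 79.7, ahead of Il33 at 63.3. With spreads of this size within each group, no order of the 4 genes could be set for a group.

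To see which genes differed between the groups, reads were summed per replicate and tested with edgeR's quasi-likelihood test over all genes. The sums take all cells of a replicate, and the mix of cells, given below, was not adjusted for. No gene passed an adjusted p of 0.05 (0 of 11760 tested, 0%), while 949 (8.07%) had an unadjusted p under 0.05, and DESeq2 on the same sums called 83 (0.706%). The count rested on single replicates, with 169 genes called without RepI and 1215 without RepL. With plates as units and the batch tag as a block 1 gene was called, not a member, and 4 with the alternative tag of the labels. Fits on plates count the 2 plates of RepI as separate units. Gm13306 had a log2 fold change of -4.71 (SE 1.43), the 48th lowest of all genes, with an unadjusted p of 0.00481 and an adjusted p of 0.617. It was 1 of 445 genes (3.78%) lower in 38w at an unadjusted p under 0.05, and 1 of 3078 (26.2%) whose CPM were lower in both 38w replicates than in both of 38wUW. DESeq2 gave it an adjusted p of 0.0465 at a log2 fold change of -4.68. In edgeR its log2 fold change was -3.67 without RepL. It was also negative without RepI, where the lone 38w replicate has no read of the gene and the fitted size is no bound. Gm13306 had passed the filter on low counts in both 38wUW replicates and in 1 of the 2 in 38w. With the reads of both copies summed before the fit, the log2 fold change was -2.67 (SE 1.12) with an adjusted p of 0.616. This sum does not depend on how reads were divided between Ccl27a and Gm13306, and it includes the reads of Ccl27a. It can still depend on reads shared with further copies, since it was whole in only 23 of the 38 cells with a fractional count.

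In the reported edgeR fit none of the other members passed the threshold either. The log2 fold change was -0.85 (SE 1.08, adjusted p = 0.841) for Ccl27a and -0.99 (SE 0.97, adjusted p = 0.790) for Il33. For Cxcl14 it was 1.11 (SE 1.04, adjusted p = 0.782) and turned in 4 alternatives. It was -0.40 (SE 0.93) without the 4 cells that held the most reads of a member, -1.85 (SE 0.96) without plate C114 and -1.34 (SE 0.98) without RepI. With plates as units and the batch tag as a block it was -0.61 (SE 1.36). Ccl27a turned to 0.072 without RepL and Il33 to 0.71 without RepN. All 4 members passed the filter on low counts, and the median over all tested genes was 0.12. Members were chosen with results known, and these values are a description.

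**Figure D4:**
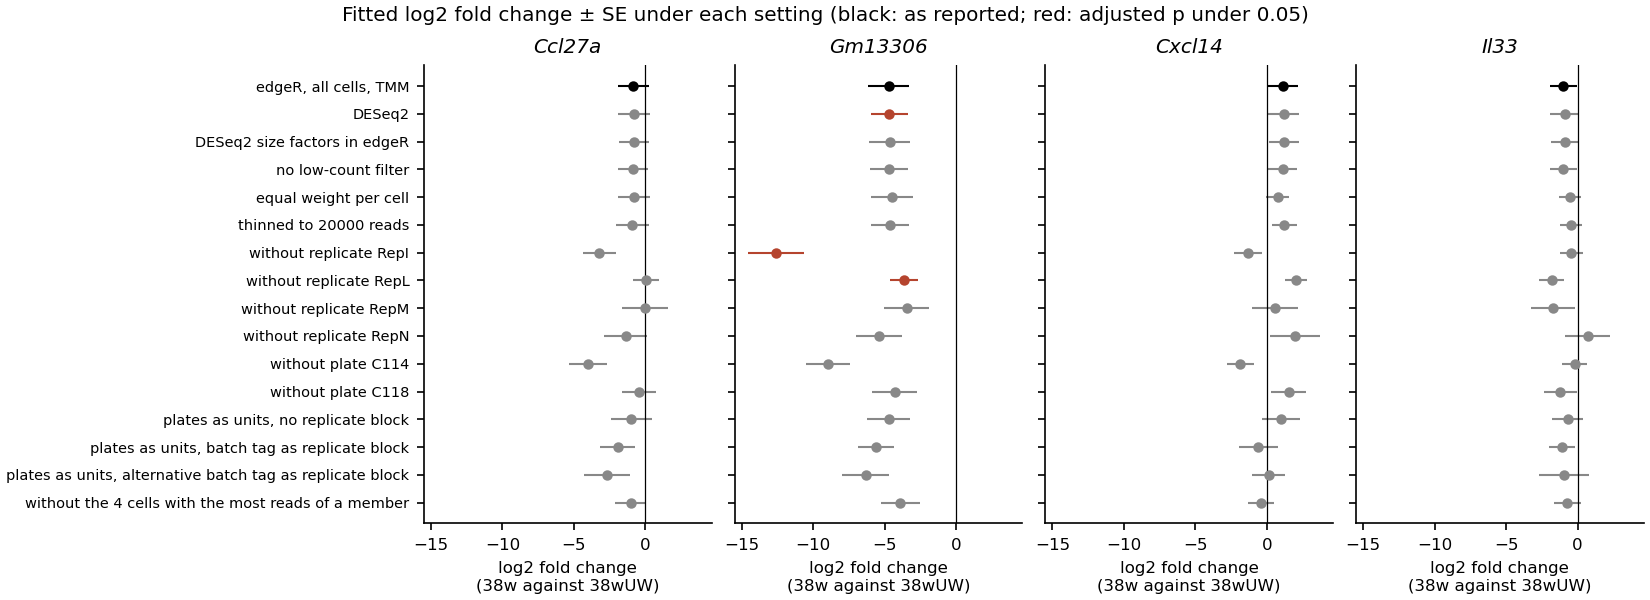
Fitted log2 fold change, 38w against 38wUW (x axis), with its SE, for each gene under 16 settings (y axis); black is the fit described in the text and red marks an adjusted p under 0.05. Gm13306 lay below 0 in every setting drawn, whereas Cxcl14 changed side in 4.

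Shares of cells were compared after each cell was thinned to 20000 reads, which 277 cells reached. The share with Gm13306 was then 4.41% ± 6.24 in 38w and 20.6% ± 8.41 in 38wUW (SD, n = 2 each), and that with Cxcl14 15.2% ± 1.34 and 21.5% ± 1.66. Neither overlapped between the groups, but 3922 of the 11760 genes (33.4%) were found in fewer cells of both 38w replicates. For Cxcl14 the groups overlapped when cells were thinned to 10000 reads (14.0% against 15.1%, exact p = 1) and without plate C118 (17.9% against 21.5%, exact p = 0.667). The exact two-sided permutation p was 0.33 for both genes, the smallest that 2 against 2 replicates allow. Ccl27a was found in 6.60% ± 7.31 and 14.9% ± 9.81 (exact p = 0.667), and Il33 in 23.2% ± 3.62 and 22.6% ± 7.65 (exact p = 1). For Cxcl14, fewer cells with a read stood beside a higher mean of the summed levels in 38w, which included the cell on C114.

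To follow the genes over the compartments of the epidermis, each cell was given the marker list on which it scored highest: infundibulum and sebaceous duct, bulge, sebocyte, differentiated interfollicular, basal or junctional zone. None of the 4 genes is on these lists. The classes are ranges of a score and not cell types, 21 cells led their second list by under 0.1, and the junctional zone rests on the 3 markers Lrig1, Plet1 and Lgr6. Levels by class are a description with no test, and how many of all genes differ as much between classes was not counted. The median cell held 90513 reads in the bulge-like class, against 52611 to 66745 in the others. The mix of classes differed between replicates: RepI, RepL, RepM and RepN held 28, 29, 15 and 7 basal-like cells. Bulge-like cells numbered 4, 11, 14 and 26 in the same order, and junctional zone cells 5, 0, 12 and 18. The part of this mix in the levels and shares of the groups was not tested.

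By share of cells, Cxcl14 followed the bulge list. It was found in 36 of 55 bulge-like cells (65.5%; 52.3% to 76.6%), and the share was above that of the remaining cells in 4 of 4 replicates. In 38w it was 50% (2 of 4 cells) against 31.8% in RepI and 72.7% against 17.2% in RepL. In 38wUW it was 71.4% against 26.5% in RepM and 61.5% against 29.8% in RepN. The mean was 63.9% ± 10.5 against 26.3% ± 6.48 (SD over 4 replicates). After thinning, the bulge-like share was still higher in 4 of 4, though in RepI it rested on 4 cells (25% against 15.6%). The reads followed the list less: bulge-like cells were 17.7% of all cells and held 20.5% of all Cxcl14 reads. Sebocyte-like cells held 42.1%, of which 98.3% came from 1 cell, and junctional zone cells 21.1%. The bulge-like CPM was above the rest in 3 of 4 replicates, with 80.1 against 125.0 in RepI. The lowest share was in differentiated interfollicular cells, at 5 of 53 (9.43%; 4.10% to 20.3%), below the rest in 4 of 4 replicates.

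Il33 ran the other way. Of 55 bulge-like cells only 2 had a read, both in RepN (3.64%; 1.0% to 12.3%), against 24.2%, 35.9%, 23.5% and 40.4% of the remaining cells of RepI, RepL, RepM and RepN. After thinning it was found in 2 of 47 bulge-like cells (4.26%). Il33 was found most often in sebocyte-like cells, 15 of 33 (45.5%; 29.8% to 62.0%), and in basal-like cells, 31 of 79 (39.2%; 29.2% to 50.3%). The basal-like share was above the rest in 4 of 4 replicates (48.0% ± 26.2 against 21.3% ± 4.52), with RepI close to the rest at 25.0% against 21.4%, and the sebocyte-like share in 3 of 4. The basal list holds Krt5, Krt14 and genes of the anchors to the basement membrane, such as Itga6 and Itgb4. Basal-like cells were 25.5% of all cells and held 35.8% of all Il33 reads, of which 38.5% came from 1 cell.

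The Ccl27 pair was spread more evenly. It was found in 26 of 79 basal-like cells (32.9%; 23.6% to 43.9%), above the rest in 3 of 4 replicates, with 0 of 29 in RepL. Basal-like cells also held 46.2% of the pair's reads, of which 51.6% came from 1 cell. In cells of the infundibulum and duct list the pair was found in 8 of 55 (14.5%; 7.56% to 26.2%), below the rest in 4 of 4 replicates. Bulge-like cells had it in 16 of 55 (29.1%), above the rest in 2 of 4.

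**Figure D5:**
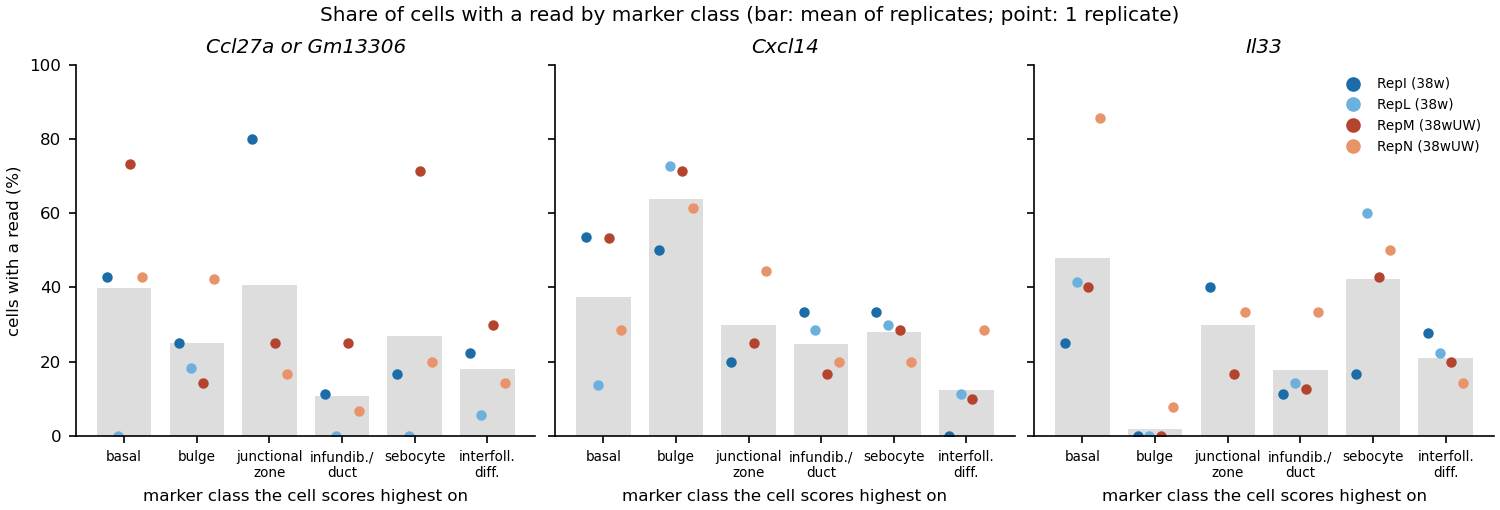
Percent of cells with a read of Ccl27a or Gm13306, of Cxcl14 and of Il33 (y axis) in each marker class (x axis); bars are means over replicates and points single replicates, with no junctional zone cell in RepL. In bulge-like cells Cxcl14 was found in 50% to 72.7% by replicate and Il33 in 0% to 7.69%.

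Few cells held all of these signals. Taking the Ccl27 pair as 1 signal, 38.1% of cells had none of the 3, 131 cells had 1, 54 had 2 and 7 had all 3. Cxcl14 and Il33 were found together in 20 cells, where the product of their shares within each plate would give 25.6, and after thinning in 6 where it would give 11.1. The pair and Il33 shared 27 cells against 17.2, and after thinning 12 against 8.95. The pair and Cxcl14 shared 28 against 28.2. Cells with a read were deeper than cells without on most plates, for example 132603 against 80944 reads in the median for Cxcl14 on C129. For Il33 they were not deeper on C118 and C119. The part of depth in the unthinned overlaps was not tested.

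The genes most alike were sought by the Spearman correlation across the cells of a plate, averaged over plates, among 6320 genes found in at least 20% of cells and the members. Points are cells that share a plate and differ in depth, so the values are a description. Beside Gm13306 itself (mean rho 0.52), the 5 genes most alike Ccl27a were Sostdc1 (0.30), a secreted antagonist of BMP and Wnt signals, Ifitm3 (0.29), an interferon-induced membrane protein, Mphosph8 (0.29), a chromatin protein, and Gm13305 (0.27), which adjoins Gm13306. For Gm13306 they were Ccl27a, Ifitm3 (0.44), Ilk (0.41), Apcdd1 (0.38) and Cdca7 (0.38), but on C118, where 1 cell had a read, Ilk and Apcdd1 reached 1.0. Over the 3 plates where at least 10 cells had the gene, Ifitm3 stayed second at 0.45 and Ilk and Apcdd1 were no longer among the 5. This restriction was chosen after the values were seen.

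Cxcl14 was most alike Dkk3 (0.39) and Postn (0.38), both on the bulge list, followed by Maged1 (0.34), Creb5 (0.34) and Igfbp7 (0.33). Postn encodes periostin, a matrix protein that the study also used as a marker of the infundibulum, and Dkk3 a secreted protein of the Dickkopf family. On C114 alone the correlations with Dkk3 and Postn were 0.12 and 0.10, against 0.32 to 0.71 on the other plates. The 0.71 is that of Dkk3 on C118, where 2 cells held Cxcl14. Over the 4 plates with at least 10 such cells, Creb5 led at 0.34, Postn had 0.34 and Dkk3 was the last of the 5 at 0.31, with Krt15 in the place of Maged1. Il33 was most alike Cdca7 (0.34), Igfbp2 (0.32), which encodes a binder of insulin-like growth factors, Pdlim1 (0.30), Adh1 (0.30), an alcohol dehydrogenase, and Psat1 (0.30), an enzyme of serine synthesis. Over the 3 plates with at least 10 cells, 1 of these 5, Cdca7, was again among the 5, and Krt14 led at 0.34.

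Other genes of these pathways were followed from lists of chemokines, their receptors, the IL-1 family, its receptors, and the copies and neighbours of Ccl27a. Of their 38 genes in the table besides the members, 21 could be tested, with a median log2 fold change of -0.29 against 0.12 over all genes. None passed by edgeR, 4 had an unadjusted p under 0.05 (8.07% of all genes tested did), and DESeq2 called 1 (0.706% of all genes), Ackr3, which is named after its value was seen. Ackr3 is a scavenging receptor of CXCL12, and its log2 fold change was 4.48 (SE 1.33, adjusted p = 0.617 by edgeR and 0.0192 by DESeq2). Among ligands, 12 of 36 listed chemokines were in the table. Cxcl16, a membrane-bound chemokine, was found in 98 cells, more than the Ccl27 pair, at 55.8 and 12.2 CPM in 38w and 31.4 and 52.3 in 38wUW. Cxcl12, which guides CXCR4-bearing cells, was found in 73 cells at 23.1, 9.48, 45.3 and 78.8 CPM in RepI, RepL, RepM and RepN.

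Of the receptors of the members' own products, Ccr10 was not analysed here. Il1rl1 was found in 6 cells and stayed at or below 0.548 CPM in every replicate, whereas Il1rap, which other IL-1 family receptors also use, was found in 36 cells at 8.64 to 45.1 CPM. The scavenging chemokine receptor gene Ackr4 was found in 92 cells at 31.2 to 48.8 CPM, and Il1rl2, the receptor for IL-36, in 74 cells at 7.80 to 32.4 CPM. Immune cell markers were near 0, with 3 of 7 in the table summing to 1.31 to 2.93 CPM per replicate. Il11ra1, whose end overlaps that of Ccl27a, was found in 89 cells at 47.1, 8.37, 20.7 and 24 CPM. The protocol does not mark strand, so reads over the shared 8 bases could come from either gene.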

How the data were processed

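Reads were amplified by PCR and not marked by molecule, so intervals and floors cover counting error only. The authors estimated counts per gene with Salmon 0.13.1 on Ensembl transcripts of GRCm38 and deposited estimated counts, not scaled, for 310 cells (3.60% of values not whole). Here counts were summed per replicate, rounded and fitted in edgeR 4.0.16 (R 4.3.3; filterByExpr, TMM, quasi-likelihood F-test, Benjamini-Hochberg adjustment over all 11760 genes, threshold 0.05). DESeq2 1.42.0 was an alternative. Shares of cells were compared by exact permutation over the 4 replicates. Classes used the highest mean z-score of log counts per 10000 over a marker list. Genes were named by rule: the members, the 5 genes most alike each, and pathway genes found in at least 20% of cells. Il1rl1 and Il1rap were added as receptors of IL-33, and Ackr3 and the list genes of the closing section after their values were seen. Loci and sequences came from GENCODE M21 and RefSeq on GRCm38, whose annotation release is not the one of the authors. Members, lists, rules and tests were chosen with earlier results of these data known. Doublets were not called, since wells of a single-cell plate are meant to hold 1 cell. For the 2 MBULK wells this is not known. The study also ran mini-bulk sequencing of sorted cells, and the labels do not say whether MBULK refers to it.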

Additional observations from a re-analysis of the deposited data

How the results depend on the processing

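The reads per gene were few, from 724 for Ccl27a to 2794 for Il33 over all cells, and 2 replicates per group limit every comparison. The number of genes called was 0 in the reported fit and in 11 of 17 alternatives. It was 83 with DESeq2, 1 without the filter on low counts, and 0 to 1215 when 1 replicate was left out (1215 without RepL, 169 without RepI, 0 without RepM or RepN). The replicate names share no number between the groups, but the batch tags run across them. The alternative tag of the labels swaps the tags of C128 and C129. With plates as units and the batch tag as a replicate block, 1 gene was called, and 4 with the alternative batch tag. Without a block, plates gave 0. All fits with plates as units treat the 2 plates of RepI as independent, although they are 1 replicate.

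Gm13306 kept its direction under all 17 alternatives, and how many of all genes did so was not counted. It passed the threshold with DESeq2 (-4.68, adjusted p = 0.0465), which called 83 of 11760 genes (0.706%). Its log2 fold change was -12.6 without RepI and -3.67 without RepL. In these 2 fits a lone 38w replicate is assumed to vary like the others. The fit without RepI sets RepL, with 0 reads, against the rest, so its size depends on the prior count. Over single left-out replicates the log2 fold change ran from -12.6 to -3.47 for Gm13306, from -3.22 to 0.072 for Ccl27a (0.072 without RepL), from -1.34 to 2.04 for Cxcl14 (-1.34 without RepI) and from -1.82 to 0.71 for Il33 (0.71 without RepN). Cxcl14 also turned to -1.85 without plate C114, to -0.61 with the batch tag as a replicate block and to -0.40 without the 4 cells with the most reads of a member, an alternative added after the data were seen. The sum of both Ccl27 copies without those 4 cells was -2.46. Leaving out the 15 cells with a suffix gave -5.03 for Gm13306 and turned no member. Without only the 2 MBULK cells it was -4.72, and again no member turned. The cause of these changes was not tested, beyond the samples or cells each fit leaves out.

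The difference in thinned shares kept its direction in 45 of 50 alternatives. Counting only cells with at least 3 reads turned it to 1.64 percentage points for Cxcl14 (-1.13 when thinned to 10000 reads, -3.56 without plate C118) and -2.30 for Il33, whose reported difference of 0.557 points also turned to -2.87 without plate C118. Over left-out replicates it ran from -7.44 to -5.08 for Cxcl14, from -22.2 to -10.3 for Gm13306, from -15.3 to -1.40 for Ccl27a and from -4.85 to 5.96 for Il33 (-2.01 without RepL, -4.85 without RepM). Of 36 alternative class shares, 1 left the interval of its reported value, Cxcl14 in basal-like cells at 26.8% without plate C114, against 36.7%. Each alternative is a subset of the cells that gave the interval, so staying inside it is no independent check. Of the 5 genes most alike Ccl27a, 3 were shared with the list by Pearson correlation. Over plates with at least 10 cells holding a read, 3 were shared for Gm13306, 4 each for Ccl27a and Cxcl14, and 1 for Il33.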

Other observations

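Among the other genes of the lists, several summed levels rested on 1 cell, as that of Cxcl14 did. These genes were picked after their values were seen. Tslp, an epithelial cytokine that acts on dendritic cells, had 291 reads in 8 cells, of which 81.4% lay in 1 cell of C129. Ccr9 had 312 reads, 83.7% in 1 cell of C129, and its ligand Ccl25 had 560 reads, 58.4% in 1 cell of the same plate. Il1r2, a decoy receptor that takes up IL-1 without passing on a signal, was at 84.9 and 66.5 CPM in 38w and at 14.1 and 17.9 CPM in 38wUW (log2 fold change 2.49, SE 0.90, adjusted p = 0.617 by edgeR over all genes). Il1r2 and Ackr3 were both among the 10 genes with the largest fold in basal-like cells against the rest.

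Pecam1, a marker of endothelial cells, was found in all 310 cells at 1264 to 8773 CPM by replicate, whereas Kdr, the other endothelial marker in the table, was found in 8 cells and stayed at or below 0.411 CPM.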
